A study of Mus musculus with 2 samples.

Results

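The small leucine-rich proteoglycans were described in the whole uterus of pregnant mice. They were taken as the rows of the main expression table whose symbol is Dcn, Lum, Bgn, Fmod, Ogn, Prelp, Omd, Kera, Aspn or Epyc, which gave 10 genes of the 22740 in the table. RNA was sequenced from the whole uterus of 2 independent wild-type C57BL/6 mice on day 4 of pregnancy, 1 library per animal. Their titles number them, and here they are uterus 1 and uterus 2. No allele, transgene or agent is labelled, and both libraries form 1 group, so no condition is compared. Levels are the authors' RPKM, which scales reads by transcript length and library size, a unit that can be set side by side between genes.

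Small leucine-rich proteoglycans are secreted proteins of the extracellular matrix, each built from a short series of leucine-rich repeats that forms a curved solenoid. Most of them bind collagen fibrils and set how thick the fibrils grow and how they are spaced, and several bind growth factors of the TGF-beta family. They are grouped into class I (decorin, biglycan, asporin), class II (lumican, fibromodulin, PRELP, osteomodulin, keratocan) and class III (osteoglycin, epiphycan), and many carry chains of chondroitin, dermatan or keratan sulfate. In the uterus they belong to the stroma and to the connective tissue between muscle bundles.

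Of the 10 genes, 8 reached at least 1 RPKM in both uteri, a level that 58.4% of all 22740 genes and 61.6% of the 20445 genes with an NM_ identifier, which marks protein-coding transcripts, reached. Dcn was highest, followed by Lum, Bgn and Ogn. Prelp, Aspn, Fmod and Omd lay far lower, and the other 2, Kera and Epyc, were listed at 0 in both animals, as were 23.4% of all genes and 21.8% of those with an NM_ identifier. Summed over the family, the level was 895 RPKM in uterus 1 and 1015 RPKM in uterus 2, a mean of 955 ± 85.3 RPKM (SD, n = 2), from 7452 and 9332 recovered reads. The median member lay at 9.19 and 9.31 RPKM, against 4.31 and 4.21 RPKM for the median gene with an NM_ identifier. Since whole tissue was sequenced, fewer cells of a type and less RNA per cell cannot be told apart.

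**Figure D1:**
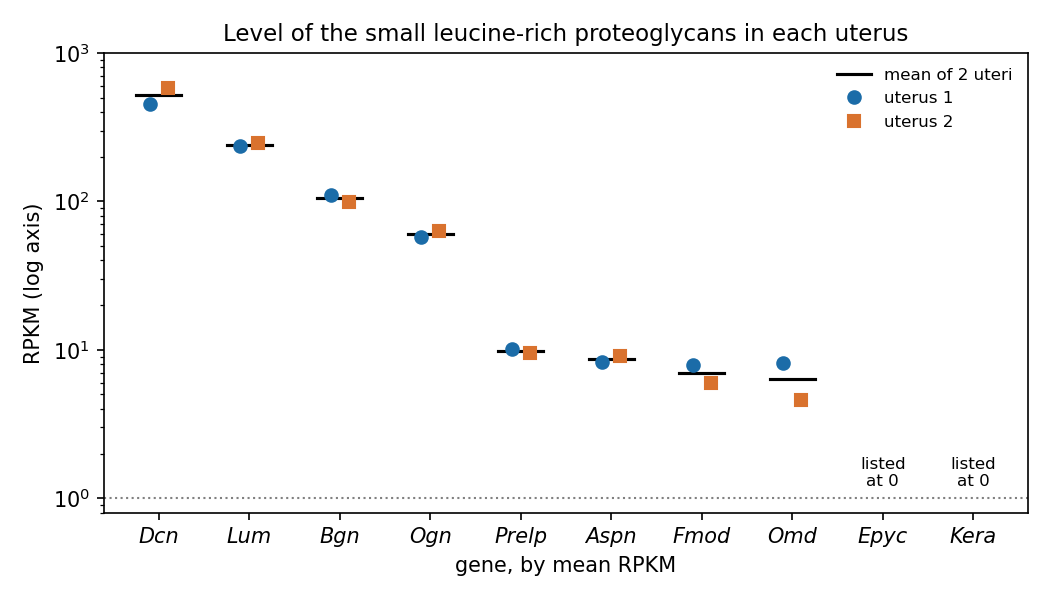
RPKM (log axis) of the 10 genes in uterus 1 (circles) and uterus 2 (squares), with the mean of the 2 uteri as a bar and the threshold of 1 RPKM as a dotted line. Dcn lies at 456 and 578 RPKM, 4 genes lie between 4.56 and 10.1 RPKM, and Epyc and Kera are listed at 0.

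The tissue label was compared with defining markers. All 6 markers of uterine stroma and hormone response, all 5 of smooth muscle and all 6 of uterine epithelium were at 1 RPKM or more in both uteri. Of 7 markers of cartilage, tendon and cornea, tissues in which several of these proteoglycans are abundant, 1 (Scx) reached 1 RPKM in both, and Matn1 and Tnmd were listed at 0. None of the 4 fat markers reached it, with Adipoq and Cidec listed at 0. Of 5 ovary and oviduct markers 3 did, the highest being Ovgp1 at 5.78 and 9.31 RPKM, and the 3 mesothelium markers had means of 2.79 to 6.52 RPKM.

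Promoter sequences of the members were taken from RefSeq (mouse build GRCm38.p6), whose promoter table matched 8 of the 10 genes with 9 promoters. Dcn and Lum are not in that table. The 250 bases before the start are shown for 5 genes, chosen to set a high level beside low ones and beside a listed 0. Capitals mark every match, on either strand, to TATAAA (the TATA box), CCAAT (the CCAAT box), GGGCGG (a binding motif of Sp factors), TGANTCA (an AP-1 motif) or TGTTCT (a half-site of steroid receptors). Among 32841 promoters of the same length, TATAAA was found in 12.4%, CCAAT in 33.9%, GGGCGG in 32.7%, TGANTCA in 6.75% and TGTTCT in 16.1%. A match describes the letters and not a bound site. The promoter starts are those of RefSeq and can differ from the deposited starts, which are in build mm9. A promoter shown may therefore not be that of the measured transcript.

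Class I genes spanned nearly the whole range of the family. Dcn (NM_001190451, chromosome 10, 96942134 to 96980796, plus strand, build mm9) encodes decorin, which coats collagen fibrils and binds TGF-beta and several receptor kinases. Its level was 456 RPKM in uterus 1 against 578 RPKM in uterus 2, a mean of 517 ± 85.9 RPKM (SD, n = 2), on 3647 and 5126 reads. Uterus 2 was the higher, and the counting intervals of the uteri did not overlap (442 to 471 and 562 to 594 RPKM, exact Poisson, 95%). Dcn ranked 98 among all genes by mean and 88 among those with an NM_ identifier, and alone held 51.0% and 56.9% of the summed RPKM of the family.

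Bgn (NM_007542, chromosome X, 70728974 to 70741275, plus strand) encodes biglycan, the nearest relative of decorin, which also acts as a ligand of Toll-like receptors when it is released from the matrix. Its level was 111 RPKM in uterus 1 against 98.6 RPKM in uterus 2, a mean of 105 ± 8.45 RPKM (SD, n = 2) on 1013 and 1003 reads, and ranked 409 among genes with an NM_ identifier. Dcn was 4.13 times as high as Bgn in uterus 1 and 5.86 times in uterus 2. The Bgn promoter (chrX:73483351-73483600, plus strand) had the highest GC content of the 9, 64.4%, and was the only one of them with GGGCGG, matched 3 times on the minus strand within 34 bases of the start, with 2 of the matches overlapping.
Bgn: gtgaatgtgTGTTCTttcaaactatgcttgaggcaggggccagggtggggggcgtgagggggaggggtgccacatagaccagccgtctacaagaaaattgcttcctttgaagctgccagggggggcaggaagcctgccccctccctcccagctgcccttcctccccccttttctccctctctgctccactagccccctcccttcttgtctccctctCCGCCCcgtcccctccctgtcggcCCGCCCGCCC

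Aspn (NM_001172481, chromosome 13, 49639812 to 49662931, plus strand) encodes asporin, a member with a run of aspartate residues that binds collagen and TGF-beta. It lay at 8.32 and 9.09 RPKM, a mean of 8.71 ± 0.547 RPKM (SD, n = 2), on 75 and 91 reads. The values of the uteri lay within each other's counting intervals (6.54 to 10.4 and 7.32 to 11.2 RPKM). Dcn was 54.9 and 63.5 times as high, so the class I genes were far apart in both animals. The Aspn promoter (chr13:49544193-49544442, plus strand) had a GC content of 30.0%, the lowest of the 9, with TATAAA on the plus strand 207 to 202 bases before the start and on the minus strand 178 to 173 bases before it.
Aspn: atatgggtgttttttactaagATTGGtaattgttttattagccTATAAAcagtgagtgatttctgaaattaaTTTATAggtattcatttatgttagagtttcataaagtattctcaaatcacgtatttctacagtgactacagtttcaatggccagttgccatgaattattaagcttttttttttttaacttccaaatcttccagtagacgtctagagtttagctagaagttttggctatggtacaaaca

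In class II, Lum (NM_008524, chromosome 10, 97028135 to 97035337, plus strand) was the highest. Lumican, its product, carries keratan sulfate in the cornea and limits the thickness of collagen fibrils in many connective tissues. Lum lay at 235 and 247 RPKM, a mean of 241 ± 8.01 RPKM (SD, n = 2) on 1872 and 2178 reads, and ranked 157 among genes with an NM_ identifier. Its coefficient of variation, 3.32%, was the lowest of the 8 detected members. Dcn was 1.94 and 2.34 times as high as Lum.

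Fmod (NM_021355, chromosome 1, 135934092 to 135944854, plus strand) encodes fibromodulin, which binds the same region of type I collagen as lumican. It lay at 7.94 and 6.00 RPKM, a mean of 6.97 ± 1.37 RPKM (SD, n = 2), on 87 and 73 reads. Lum was 29.6 times as high as Fmod in uterus 1 and 41.1 times in uterus 2. Prelp (NM_054077, chromosome 1, 135806882 to 135817978, minus strand) encodes a member with a basic, heparin-binding end that links collagen to basement membranes. It lay at 10.1 and 9.53 RPKM, a mean of 9.80 ± 0.383 RPKM, on 139 and 146 reads. An annotated gene on the opposite strand, Gm15851, shares exon bases with Prelp, and the use of strand in counting is not given in the sources used here, so reads of the 2 genes cannot be told apart.

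Omd (NM_012050, chromosome 13, 49678116 to 49687978, plus strand) encodes osteomodulin, best known from bone and tooth. Its level was 8.19 RPKM in uterus 1 against 4.56 RPKM in uterus 2, a mean of 6.38 ± 2.57 RPKM (SD, n = 2), on 55 and 34 reads. Relative to its mean this was the widest spread of the 8 detected members. None of the 5 motifs was found before the start of Omd (chr13:49582212-49582461, plus strand).
Omd: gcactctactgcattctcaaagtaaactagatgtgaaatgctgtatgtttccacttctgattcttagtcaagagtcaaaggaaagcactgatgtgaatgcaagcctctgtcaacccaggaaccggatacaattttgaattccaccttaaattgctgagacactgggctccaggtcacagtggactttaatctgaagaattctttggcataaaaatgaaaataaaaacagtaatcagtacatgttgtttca

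Kera (NM_008438, chromosome 10, 97069839 to 97076322, plus strand) encodes keratocan, a keratan sulfate proteoglycan of the cornea, and was listed at 0 in both uteri. A listed 0 is not read as absence, because Rpl26, a ribosomal component needed in every cell, had a listed 0 in both as well. The Kera promoter (chr10:97606955-97607204, plus strand) held CCAAT 3 times, more than any other of the 9.
Kera: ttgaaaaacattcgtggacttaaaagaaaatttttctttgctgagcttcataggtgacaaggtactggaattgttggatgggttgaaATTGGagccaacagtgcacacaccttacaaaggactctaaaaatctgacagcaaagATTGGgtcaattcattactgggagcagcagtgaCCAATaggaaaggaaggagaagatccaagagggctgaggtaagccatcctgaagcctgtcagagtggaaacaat

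In class III, Ogn (NM_008760, chromosome 13, 49703440 to 49719869, plus strand) lay at 57.9 and 63.0 RPKM, a mean of 60.5 ± 3.59 RPKM (SD, n = 2) on 564 and 681 reads. Osteoglycin, also called mimecan, is a small keratan sulfate proteoglycan of connective tissue and vessel walls. Ogn ranked 885 among genes with an NM_ identifier. Epyc (NM_007884, chromosome 10, 97106702 to 97144534, plus strand), which encodes epiphycan of growth cartilage, was listed at 0 in both uteri. The Ogn promoter (chr13:49607765-49608014, plus strand) held TATAAA once on each strand in overlapping positions, between 229 and 222 bases before the start.
Ogn: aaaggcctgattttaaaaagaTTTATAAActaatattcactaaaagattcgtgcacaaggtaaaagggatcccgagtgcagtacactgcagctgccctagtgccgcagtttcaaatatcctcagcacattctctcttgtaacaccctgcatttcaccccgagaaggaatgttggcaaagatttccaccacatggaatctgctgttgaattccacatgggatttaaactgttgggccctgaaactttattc

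By mean RPKM the order was Dcn, Lum, Bgn, Ogn, Prelp, Aspn, Fmod and Omd. The upper part of the order was the same in both animals with wide gaps: Dcn exceeded Lum 2.15-fold by mean, Lum exceeded Bgn 2.30-fold, Bgn exceeded Ogn 1.73-fold and Ogn exceeded Prelp 6.17-fold, and none of these neighbours overlapped. Prelp and Aspn kept their order in both uteri, with counting intervals that overlapped in each. In uterus 1 Aspn, at 8.32 RPKM, lay just below the interval of Prelp (8.46 to 11.9 RPKM), and in uterus 2 each lay within the other's interval. Aspn and Fmod also kept their order. They were close in uterus 1 (8.32 and 7.94 RPKM), whereas in uterus 2, at 9.09 and 6.00 RPKM, each lay outside the other's counting interval (7.32 to 11.2 and 4.70 to 7.54 RPKM), although the intervals themselves overlapped. Fmod and Omd overlapped, and Omd was the higher of the pair in uterus 1 and the lower in uterus 2. The order was not tested.

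The members are not scattered over the genome. Dcn, Lum, Kera and Epyc lie in that order within 202 kb of chromosome 10, all on the plus strand, and this cluster held 79.3% of the family's summed RPKM on average (77.3% in uterus 1 and 81.2% in uterus 2). Lum starts 47.3 kb after Dcn ends and Kera 34.5 kb after Lum ends, so the cluster runs from the highest members to those listed at 0 within a short distance. The non-coding gene 4930473O22Rik between Lum and Kera was listed at 0, as were 4930556N09Rik before Dcn and Gm10754 and Ccer1 around the end of Epyc. Btg1, an antiproliferative gene 857 kb before Dcn, lay at 35.2 RPKM in both.

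On chromosome 13, Aspn, Omd and Ogn follow each other within 80.1 kb and held 7.93% of the family's RPKM on average. Ogn was 6.96 and 6.93 times as high as Aspn, so this ratio hardly differed between the animals. Against Omd, which starts 15.2 kb after Aspn ends, Ogn was 7.07 times as high in uterus 1 and 13.8 times in uterus 2. Ecm2, a leucine-rich matrix gene just before Aspn, lay at 7.04 and 7.25 RPKM, and beyond Ogn the nucleolar gene Nol8 at 8.38 and 8.62 RPKM and the tRNA synthetase gene Iars at 28.4 and 25.9 RPKM. All 3 members lie inside the span of the centromere gene Cenpp on the opposite strand (3.71 and 5.35 RPKM), but no annotated exons overlap.

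Prelp and Fmod, 116 kb apart on opposite strands of chromosome 1, held 1.77%, and Bgn on chromosome X held 12.4% in uterus 1 and 9.72% in uterus 2. Optc, which encodes opticin, a related protein of the vitreous of the eye, lies 3.13 kb from Prelp and had 2.52 and 1.70 RPKM on 20 and 15 reads. The calcium pump gene Atp2b4 beyond it lay at 31.4 and 30.9 RPKM. On the far side of Fmod, Btg2 lay at 29.4 and 30.1 RPKM and the chitinase gene Chit1 was listed at 0. Around Bgn, Haus7 lay at 8.60 and 6.89 RPKM, Trex2 was listed at 0, and Atp2b3 and Dusp9 had at most 3 reads in either uterus.

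**Figure D2:**
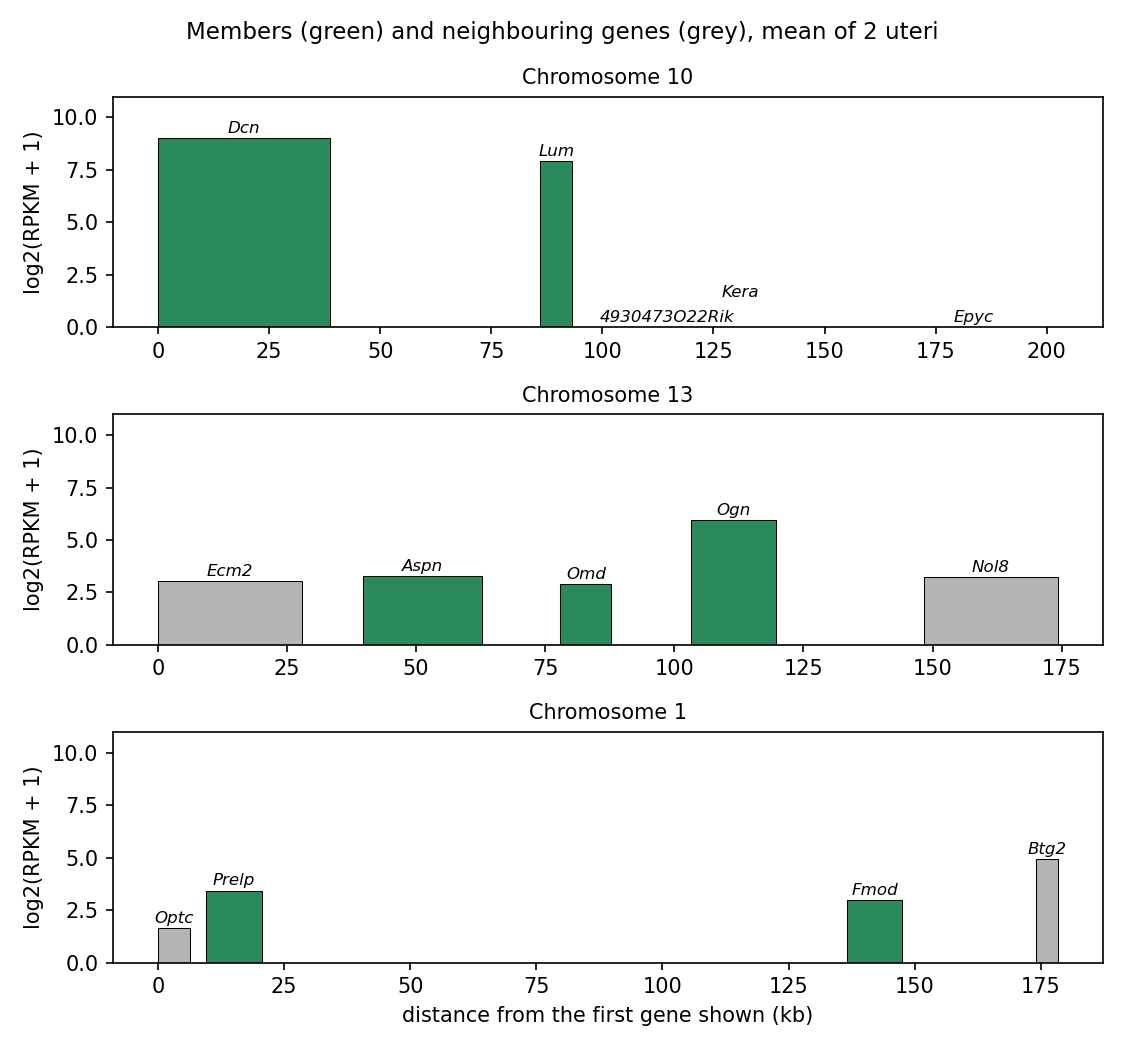
Mean level over the 2 uteri, as log2(RPKM + 1), of members (green) and neighbouring genes (grey) drawn to scale along each chromosome, in kb from the first gene shown. Dcn and Lum stand high beside Kera and Epyc, which are listed at 0, and Ogn is the highest of its cluster.

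The core proteins of the other proteoglycans gave a scale for these levels. Among 34 core genes, the 10 small leucine-rich ones held 61.4% ± 3.53 (SD, n = 2) of the summed RPKM, 58.9% in uterus 1 and 63.9% in uterus 2. The share depends on the 24 other cores chosen for the list. Dcn and Lum were the highest of the 34, Bgn was number 4 and Ogn number 7. Between them came Srgn, the serglycin of leukocyte granules, at 102 and 110 RPKM, the basement membrane perlecan gene Hspg2 at 81.2 and 62.0 RPKM, and the TGF-beta co-receptor gene Tgfbr3 at 78.5 and 61.5 RPKM. Srgn overlapped Bgn. Dcn was 10.8 and 14.4 times as high as Vcan, the large matrix proteoglycan versican (named after its values were seen). The lowest of the other cores was Gpc5, listed at 0.

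**Figure D3:**
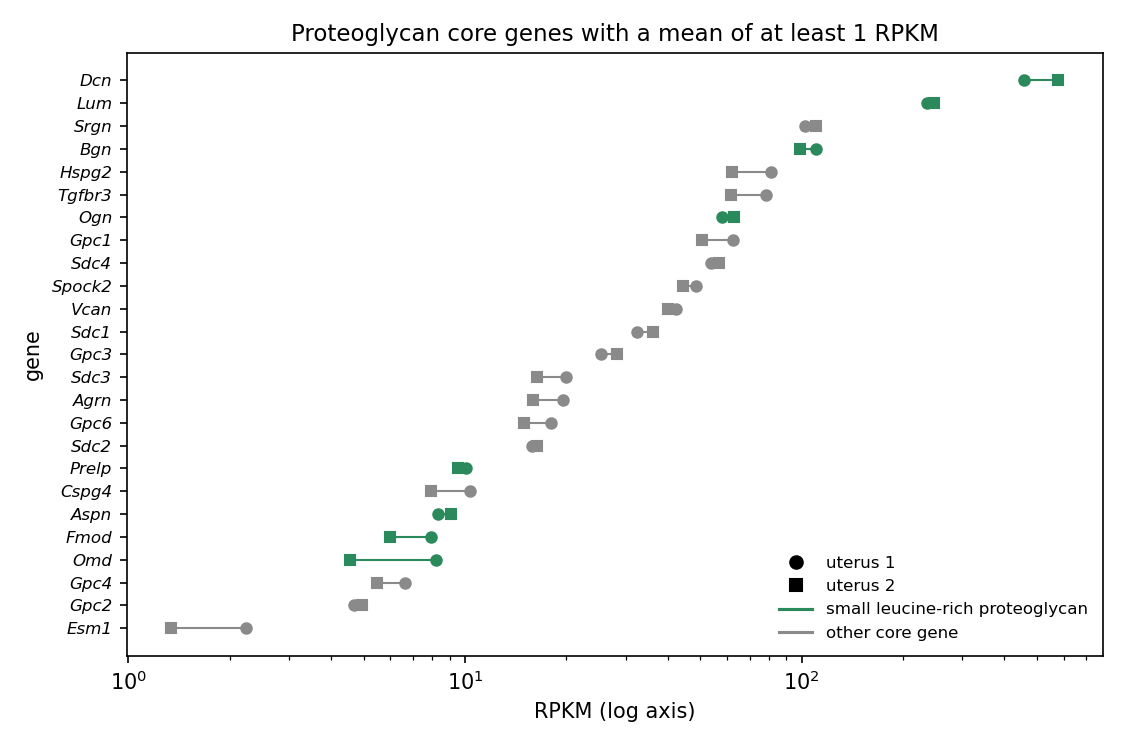
RPKM (log axis) of proteoglycan core genes at or above a mean of 1 RPKM in uterus 1 (circles) and uterus 2 (squares), small leucine-rich members in green and other cores in grey. Dcn and Lum lie above all other cores, whereas Prelp, Aspn, Fmod and Omd lie in the lower part, between 4.56 and 10.1 RPKM.

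The uteri were then compared gene by gene. None of the 8 detected members was 2-fold or more apart, against 2.6% of the 13647 genes whose mean reached 1 RPKM. Counting was tested with a two-sided exact binomial test on the recovered reads, adjusted by Benjamini-Hochberg over 15132 genes. It compares these 2 libraries and not conditions. It called 1 of the 8 members, Dcn, against 4.71% of all genes tested (2.16% higher in uterus 2 and 2.54% higher in uterus 1).

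Dcn was 1.27-fold higher in uterus 2, a log2 ratio of 0.34 from reads with a counting interval of 0.28 to 0.40, and the exact binomial test gave an adjusted p of 4.4e-25. Calls were frequent among genes of such depth. Of the 139 genes with at least 5000 reads in sum, Dcn among them, the test called 58.3%, and of the 1666 genes with at least 1000 reads, which include 4 members, 21.4%. In the 470 genes whose mean reached 100 RPKM, the median size of the log2 ratio was 0.11 and 90% lay within 0.32, so the ratio of Dcn was just past that bound. Whether the animals or the preparation of the libraries set this difference cannot be told apart with 1 library per animal.

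No other member passed the test after adjustment. Of genes with at least 20 and under 1000 reads in sum, the depth of Prelp, Aspn, Fmod and Omd, it called 2.96%. Lum had a log2 ratio of 0.07 (counting interval -0.02 to 0.16) and Ogn 0.12 (-0.04 to 0.28), both with an adjusted p of 0.53 in the exact test. Bgn, at -0.16 (-0.29 to -0.04), was lower in uterus 2 with an adjusted p of 0.13 in the same exact test. Omd had the lowest ratio of the members, -0.84 (-1.51 to -0.20), which is 1.78-fold higher in uterus 1 on the scale with a pseudocount of 0.1 RPKM, and an adjusted p of 0.11 in the exact test. The intervals of Prelp, Aspn and Fmod included 0. Dcn, Lum, Ogn and Aspn had positive ratios and the other 4 members negative ones, and the median over the 8 was -0.01, against 0.0007 over all 13647 genes.

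**Figure D4:**
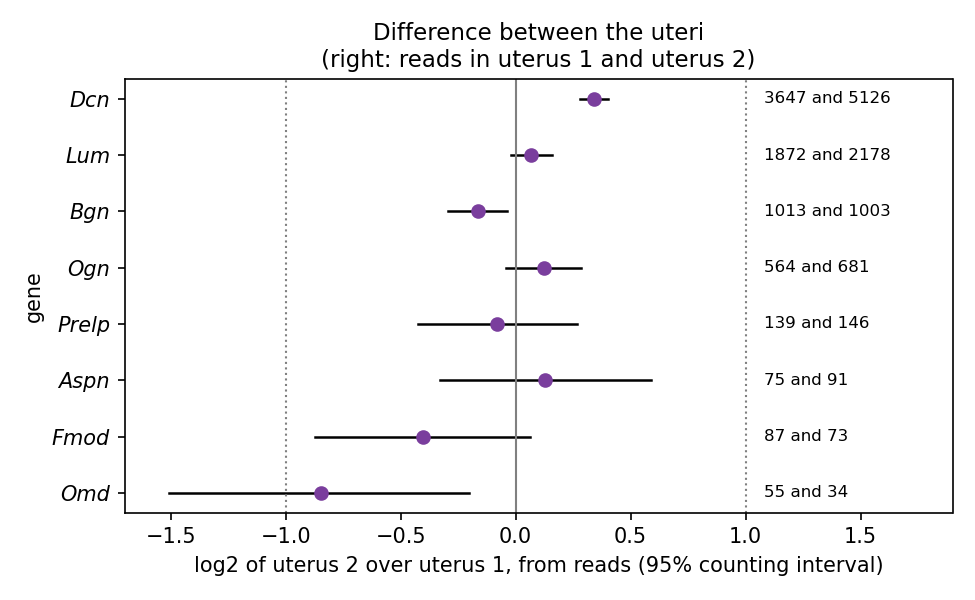
Log2 of uterus 2 over uterus 1 from recovered reads for the 8 detected members, with exact 95% counting intervals, dotted lines at a 2-fold difference and the reads of both uteri at the right. The interval of Dcn is narrow and above 0, and that of Omd, with 55 and 34 reads, is the widest.

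The base composition of transcripts moved with the ratio of the libraries. Among the 1666 genes with at least 1000 reads in sum, 96.9% had an annotated coding transcript, and the median log2 ratio went from 0.09 for a GC content under 42% (221 genes) to -0.11 for 58% or more (90 genes). The members with a positive ratio had GC contents of 42.4% (Dcn), 41.98% (Lum), 36.3% (Ogn) and 34.4% (Aspn). Bgn, Prelp and Fmod, with negative ratios, had 52.3%, 53.8% and 53.7%, and Omd, the lowest ratio of all, had 34.9%. These GC contents are of annotated transcripts. For Dcn, Fmod and Omd the annotated length differs by 326, 261 and 195 bases from that recovered with the reads. Their measured transcripts may therefore differ in GC content. After the median of the same GC class was subtracted, an alternative chosen after seeing the data, Dcn lay at 0.29, Lum at -0.02, and Ogn and Aspn at 0.03. Bgn came to -0.15, Fmod to -0.38 and Prelp to -0.06, and Omd moved away from 0, to -0.92. Lum and Dcn lie on either side of the class edge at 42%, and the median subtracted was 0.09 for Lum and 0.05 for Dcn. The part of GC content in these ratios was not tested. Length moved less: the median was 0.06 under 1500 bases and -0.01 from 6000 bases.

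**Figure D5:**
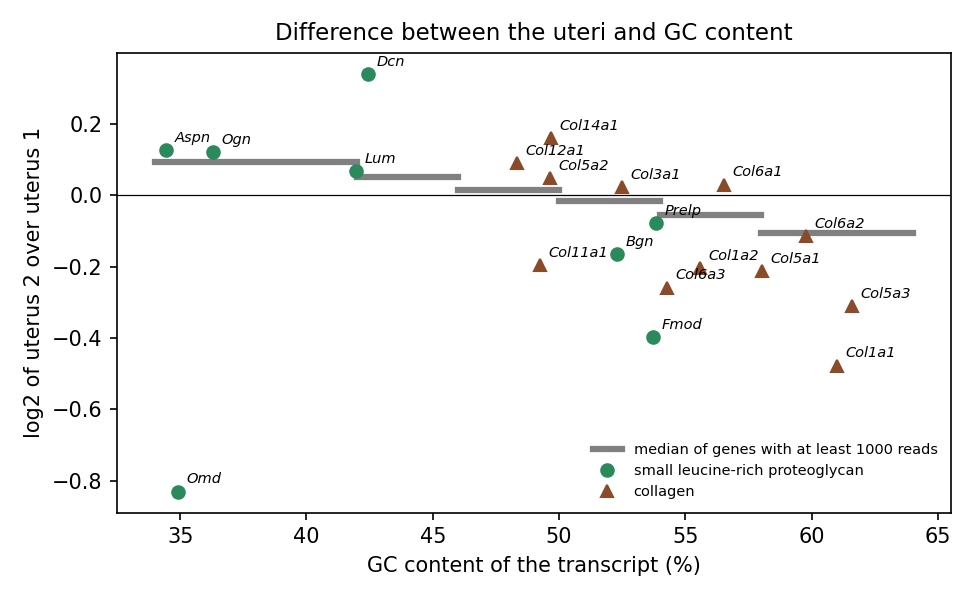
Log2 of uterus 2 over uterus 1 against the GC content of the transcript for the 8 detected members (circles) and the 12 collagen genes at or above 1 RPKM (triangles). Grey bars are medians of genes with at least 1000 reads in GC classes, the outermost being open-ended, and they fall from 0.09 to -0.11 as GC content rises.

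Cell type markers were also set beside the difference in Dcn. Summed over the list, the stroma and hormone response markers lay at 541 and 532 RPKM, smooth muscle at 1612 and 1598 RPKM, endothelium at 118 and 113 RPKM, and leukocytes at 53.6 and 59.7 RPKM. Epithelial markers lay at 197 and 238 RPKM. The exact test called Krt18 (70.4 and 94.3 RPKM) and Myh11 (314 and 350 RPKM) higher in uterus 2. It called Pgr (77.5 and 66.4 RPKM), Acta2 (653 and 592 RPKM) and Kdr higher in uterus 1. Tested were 6 stroma and hormone response, 5 smooth muscle, 6 epithelial and 3 endothelial markers. None of the 4 leukocyte, 3 mesothelium, 3 ovary and oviduct and 2 cartilage, tendon and cornea markers tested was called. Myh11 and Acta2 had at least 5000 reads in sum, where the test called 58.3% of all genes. Pgr had at least 1000, where it called 21.4%, and Krt18 and Kdr at least 20 and under 1000, where it called 2.96%. Mesothelium markers lay at 12.05 and 13.3 RPKM, and ovary and oviduct markers at 10.5 and 15.9 RPKM with Cyp19a1 and Zp3 listed at 0. Fat markers summed to 0.0801 and 0.123 RPKM. The part of these markers in the difference was not tested.

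Collagens are the main partners of the family. Of 13 collagen genes of fibrils and their surface, 12 were at 1 RPKM or more in both uteri, against 58.4% of all genes. The median of the 13 was 172 and 147 RPKM. Col3a1 was highest at 1908 and 1939 RPKM, followed by Col1a1 at 1184 and 851 RPKM and Col1a2 at 988 and 857 RPKM, and Col2a1 of cartilage was lowest with 1 read in all. Dcn reached 0.239 and 0.298 of the level of Col3a1, and 0.385 and 0.679 of that of Col1a1. Of 12 collagens tested, 6 were called, all higher in uterus 1: Col1a1, Col1a2, Col6a2, Col6a3, Col5a1 and Col5a3, with log2 ratios from -0.48 (Col1a1) to -0.11 (Col6a2). Of the 8 collagens with at least 5000 reads in sum 5 were called, where the share over all genes of that depth was 58.3%, and of the 10 with at least 1000 reads 5 were called, against 21.4%. The 6 had GC contents from 54.3% to 61.6%, and Col6a1 (named after its values were seen), with 56.5%, was not called. The GC content of Dcn, called in the other direction, was 42.4%.

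The enzymes that build the chains of these proteins were expressed at moderate levels. For chondroitin and dermatan sulfate, 18 of 22 genes were detected in both uteri (81.8%, against 58.4% of all genes), with a median of 11.7 ± 0.941 RPKM (SD, n = 2). Chsy1, which polymerizes chondroitin, was highest at 35.0 and 40.1 RPKM, with the polymerizing factor gene Chpf at 26.0 and 24.9 RPKM and the xylose kinase gene Fam20b at 20.8 and 22.1 RPKM. Dse, whose product converts chondroitin to dermatan sulfate and so makes the chain type of decorin, lay at 18.4 and 18.5 RPKM (chosen after its values were seen). Chsy3 was lowest at 0.672 and 0.484 RPKM. Of 22 tested the exact test called 1, a share near the 4.71% of all genes: Xylt1, one of the xylosyltransferase genes that start a chain, at 3.31 and 0.918 RPKM on 39 and 12 reads with an adjusted p of 0.0016.

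For keratan sulfate, 5 of 8 genes were detected in both (62.5%, near the 58.4% of all genes), with a median of 5.14 and 4.53 RPKM. B4galt1 was highest at 37.3 and 34.1 RPKM, then the chain-extending B3gnt2 at 11.8 and 14.3 RPKM and B4galt4 at 8.16 and 8.89 RPKM. Chst5, the mouse sulfotransferase gene of corneal keratan sulfate, was listed at 0, as was Kera. Of 7 keratan sulfate genes tested none was called, beside 4.71% of all genes tested.

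Among growth factors and receptors that bind members of the family, 13 of 14 were detected in both (92.9%, against 58.4% of all genes). Their median was 8.73 and 8.43 RPKM. Lrp1, the endocytic receptor that takes up decorin, was highest at 96.2 and 84.5 RPKM, followed by Ctgf at 52.8 and 55.1 RPKM and Egfr, whose product decorin binds and downregulates, at 38.4 and 39.1 RPKM. Erbb4 was listed at 0. Of 13 tested 2 were called, Lrp1 and Kdr (22.9 and 16.6 RPKM), both higher in uterus 1, against 4.71% of all genes tested. Their exact binomial tests gave adjusted p-values of 3.0e-09 and 0.00019. Of the 4 with at least 1000 reads in sum 1 was called, Lrp1, against 21.4% of all genes of that depth. Lrp1 was also the 1 with at least 5000, where the test called 58.3% of all genes. Kdr had at least 20 and under 1000, where it called 2.96%.

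Of 12 genes of proteases and their helpers that process or cut the members, 10 were detected in both (83.3%, against 58.4% of all genes). Their median was 14.4 and 13.5 RPKM. Mmp2, a gelatinase, was highest at 164 RPKM in each, then the membrane protease gene Mmp14 at 109 and 93.1 RPKM and Adamts1 at 69.6 and 73.8 RPKM. Bmp1, whose product removes the propeptide of biglycan, lay at 30.7 and 32.7 RPKM (chosen after its values were seen), and Mmp13 was listed at 0. Mmp14 was the only one of 10 tested that the exact binomial test called, with an adjusted p of 0.014. It was 1 of 4 with at least 1000 reads in sum, again beside 21.4% of all genes. Among the other proteoglycan cores, 5 of 20 tested were called, all higher in uterus 1: Hspg2, Tgfbr3, Gpc1, Agrn and Cspg4. Of the 7 with at least 1000 reads in sum 4 were called, and the 1 with at least 5000, Hspg2, was called, against 21.4% and 58.3% of all genes.

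Of 9 further leucine-rich matrix genes related to the family, 5 were detected in both (55.6%), near the 58.4% of all genes. Their median was 1.58 and 1.70 RPKM, against 3.28 and 3.23 RPKM over all genes. Tsku, which encodes tsukushi, a modulator of signalling by secreted growth factors, was highest at 15.6 and 17.5 RPKM. Ecm2 of the chromosome 13 cluster followed at a mean of 7.14 RPKM and Podnl1 at 2.14 RPKM, and Nepn was listed at 0. Tsku therefore lay above Prelp, Aspn, Fmod and Omd in both uteri. None of the 7 relatives tested was called, beside 4.71% of all genes.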

How the data were processed

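Poly-A RNA of whole uterus was sequenced on an Illumina HiSeq2500, per the series' design text, from TruSeq libraries of 1 microgram of total RNA, per the labels' protocols. The submitters' processing notes name TopHat, edgeR and build mm9. How reads were counted, with which annotation and whether by strand is not given in the sources used here. The authors normalized expression to RPKM and deposited it in 2 tables with identical values for all 22740 genes. Of 21203 genes matched to GENCODE M1 (build NCBIM37, the same as mm9), 12380 started 1 base after the deposited start, so starts were read as counted from 0 and are printed counted from 1.

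Reads were recovered from the RPKM steps. Single-exon genes gave scaling totals of 3834174 and 4256101. All 316 and 321 such values came out whole to within 0.0001 reads. For each gene the smallest whole length and reads that give both values were found, and multiplied where that brought the length within 0.1 (natural log) of the annotated transcript. This gave reads for all 17426 genes above 0, summing to 3810121 and 4232551. For the 8 detected members the smallest solution was used. A factor common to reads and length cannot be seen from the values. The length used equalled an annotated transcript for 4160 of 16224 genes, Lum and Ogn among them, and was within 14 bases of one for Bgn, Prelp and Aspn. For Dcn, Fmod and Omd it differed by 326, 261 and 195 bases. Doubled, the length of each member would be at least 1.83 times its longest annotated transcript. Intervals and tests cover counting error alone, as reads can be PCR copies of one molecule. The binomial test used genes with at least 6 reads in sum and an adjusted threshold of 0.05, with SciPy 1.17.1 and Python 3.11.15. It was tested on simulated data.

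Genes outside the family were named when next to a member on the chromosome, when among the 3 highest or the lowest of 7 lists, or when called by the exact test. Vcan, Col6a1, Dse, Bmp1, Rpl26 and single cell type markers were named outside this rule, after their values were seen, and Gm15851 for its overlap with Prelp. The members and lists were chosen with earlier results of these data known. Protein sequences were not used here, so the planned protein comparison was not made.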

Additional observations from a re-analysis of the deposited data

How the results depend on the processing

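All values rest on 2 animals of 1 group. Leaving out either uterus left 8 members detected, as did thresholds of 0.5 and 2 RPKM and the TPM scale. None of these settings could have changed that count. The lowest detected value was 4.56 RPKM or 10.8 TPM (Omd in uterus 2), and Kera and Epyc were listed at 0 in both. In uterus 1 alone 6 of 7 neighbouring pairs kept the order of the means, the exception being Fmod and Omd, and in uterus 2 alone 7 of 7. No member became 2-fold apart under 6 alternatives. The other one, a mean of at least 10 RPKM, kept Dcn, Lum, Bgn and Ogn only, none of them 2-fold apart. The log2 ratio of Dcn ran from 0.29 to 0.34 over 7 alternatives and its adjusted p (exact binomial test) from 4.8e-25 to 6.8e-25 over 4. These ranges were partly fixed in advance. Filters on the mean level cannot alter the ratio of Dcn. The smallest possible reads, no filter on reads and NM_ identifiers only left its reads unchanged, so they acted through the adjustment alone. The ratio of Lum turned to -0.0249 after the median of its GC class, which ends just above its GC content, was subtracted. The exact test called 581 genes with the smallest possible reads, 673 without a filter on reads and 666 with NM_ identifiers, against 712.

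On the TPM scale levels move by its construction. It gave 2259 for the summed family, 1793 for the chromosome 10 cluster, 179 for that of chromosome 13, 39.7 for the chromosome 1 pair and 248 for Bgn on chromosome X. List medians became 3.88 (relatives), 27.6 (chondroitin and dermatan sulfate), 11.4 (keratan sulfate), 377 (collagens), 20.3 (growth factors and receptors), 33.0 (proteases) and 38.3 (other cores). At 2 RPKM 3 of the relatives were detected. With 1 library left out no test on reads can be made. No paired analysis was possible because both libraries form 1 group. Prelp, Aspn, Fmod and Omd held 34 to 146 reads per library, and the counting intervals of neighbours in their order overlapped.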
